A study of Homo sapiens with 4 samples.

Results

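The enzymes that make and break down heme were followed in HGC-27 cells, an established line from a gastric carcinoma, after knockdown of USP47. USP47 is a deubiquitinase, an enzyme that removes ubiquitin from other proteins. The 9 genes were taken by symbol from the 63568 gene identifiers in the count files. They comprise 7 enzymes of heme synthesis (ALAS1, ALAD, UROS, UROD, CPOX, PPOX and FECH) and the heme oxygenases HMOX1 and HMOX2. Of the 63568 identifiers 21932 had enough reads to be tested, and all 9 genes were among them. The cells had been infected with lentivirus carrying either a scrambled control shRNA or shRNA against USP47, with 2 libraries of polyA RNA per group. The submitters describe the libraries of each condition as biological duplicates, whereas the study's methods state that RNA was extracted in triplicate. Neither the labels nor the methods state whether both knockdown libraries carry the same USP47 shRNA, so the spread between them can include a difference between shRNAs.

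Heme is an iron-containing ring that serves as the working part of cytochromes, catalase and many other proteins. Its synthesis starts in mitochondria with 5-aminolevulinate synthase, runs through the cytosol and returns to mitochondria, where ferrochelatase inserts the iron. Heme oxygenases open the ring and release biliverdin, carbon monoxide and iron. HMOX1 is the inducible form, held down by the heme-sensing repressor BACH1 and activated by NFE2L2 (NRF2), and HMOX2 is the constitutive form. A widely used "heme metabolism" gene set holds mostly genes active in maturing red cells, and the comparison between control and knockdown asks whether the heme enzymes themselves take part in how that set moves.

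The promoters of ALAS1, the entry point of the pathway, and of HMOX2, a member that rose, are shown to place the regulators described later. RefSeq promoter windows on GRCh38.p14, from 250 bases before to 50 bases after the start, were at hand for 7 of the 9 genes, in 10 windows. UROS and HMOX1 had no entry. The window of ALAS1 lies at chr3:52197833-52198132 on the plus strand, and that of the first start of HMOX2 at chr16:4474486-4474785 on the plus strand. Capitals mark the letters of the motifs found.
ALAS1: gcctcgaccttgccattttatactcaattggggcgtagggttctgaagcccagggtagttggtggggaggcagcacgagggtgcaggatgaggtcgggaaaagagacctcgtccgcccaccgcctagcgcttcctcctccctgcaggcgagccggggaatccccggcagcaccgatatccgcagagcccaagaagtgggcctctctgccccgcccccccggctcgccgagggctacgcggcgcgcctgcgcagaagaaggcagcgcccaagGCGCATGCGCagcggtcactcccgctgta
HMOX2: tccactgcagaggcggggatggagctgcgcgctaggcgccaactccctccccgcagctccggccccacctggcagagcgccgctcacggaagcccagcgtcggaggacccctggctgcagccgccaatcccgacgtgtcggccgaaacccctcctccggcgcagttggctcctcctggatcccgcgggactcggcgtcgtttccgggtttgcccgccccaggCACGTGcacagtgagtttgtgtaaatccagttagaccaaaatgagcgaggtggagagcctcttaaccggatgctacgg
Each window was searched on both strands for 4 motifs. GCATGCGC, the core of the site bound by nuclear respiratory factor 1 (NRF1), occurred in ALAS1, where the overlapping matches of both strands cover bases 272 to 281 of the window. It was found in 3.05% of all 35116 promoter windows. CACGTG, the E-box, occurred in HMOX2 at bases 223 to 228 and in 7.26% of all windows. TGACNNNGC, the core of the antioxidant response element, was present among these genes only in FECH, and in 13.3% of all windows. TGANTCA, the AP-1 site, was found in none of the 10 windows and in 7.71% of all windows. These matches describe the letters in the windows and nothing of binding.

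The libraries held between 15649899 and 20140273 counts on genes. Mitochondrial genes took 5.62% and 5.68% of the counts in control cells and 4.81% and 4.86% after knockdown. Over genes, the chi-square per degree of freedom between replicates was 5.38 for the control pair and 19.2 for the knockdown pair. The part of these differences in the results was not tested. USP47 itself was at 80.0 and 66.1 CPM (counts scaled to library size, after TMM normalization, which sets the libraries to a common level) in control cells and at 36.0 and 21.5 CPM after knockdown. USP47 fell by 1.34 on the log2 scale (standard error 0.21, adjusted p = 0.00362), and its exons share 41.4% of their bases with DKK3 on the other strand. Of the epithelial markers checked, KRT18 had at most 1 count in any library and KRT8 between 10 and 19, so these keratins, which define simple epithelia, were near absent. The epithelial list as a whole summed to between 8.78 and 14.8 TPM, whereas the fibroblast list, led by COL3A1, summed to between 521 and 589 TPM (counts per gene length, scaled to the same total in each library) in control cells and to 523 and 524 TPM after knockdown. Of the gastric lineage markers 6 of 8 had under 10 counts over all libraries together. The 8 macrophage markers, of which 4 were tested and none was called, summed to between 1.22 and 1.92 TPM after knockdown, with both control libraries inside that range. No gene of these 4 lists was called higher, beside 6.52% over all genes. Called lower were 3 of 6 tested fibroblast markers and 1 of 5 tested epithelial markers, beside 9.56% over all genes. The part of these markers in the results was not tested.

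Both heme oxygenases were called higher in USP47-knockdown cells, HMOX2 just inside the threshold, whereas no enzyme of heme synthesis passed the test. HMOX1 rose 1.92-fold and HMOX2 rose 1.37-fold. All 7 synthesis enzymes lay between a log2 fold change of -0.26 (FECH) and 0.33 (ALAS1). With edgeR's quasi-likelihood test and Benjamini-Hochberg adjustment over every tested gene, 2 of the 9 enzymes were called higher and 0 lower at an adjusted p under 0.05. Of the 7 synthesis enzymes 0 had an unadjusted p under 0.05 in that test, and 0 were called by DESeq2 or by edgeR's legacy quasi-likelihood test. The share of all genes at that unadjusted cut was not worked out, but it exceeds the 16.1% called after adjustment. With 1 library left out, the number of enzymes called higher ran from 0 (without control replicate 1) to 4 (without knockdown replicate 1), and over all genes from 323 to 3770 in the same fits, against 1430 with every library. Over all genes tested 16.1% were called, 6.52% higher and 9.56% lower. The median log2 fold change was 0.12 for the 9 genes and -0.0083 for all genes tested.

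HMOX1 (ENSG00000100292, chromosome 22 of GRCh37, 35776354 to 35790207) cleaves heme in cells under oxidative or heme stress. It was at 8.37 and 10.1 CPM in control cells and at 17.2 and 18.5 CPM after knockdown. The groups did not overlap, and their means were further apart than the spread within either, at 9.23 ± 1.22 and 17.8 ± 0.918 CPM (SD, n = 2 per group). The log2 fold change was 0.94 (standard error 0.16, 95% interval 0.59 to 1.30, adjusted p = 0.00466). The call was kept in the 7 alternative fits that used every library, while HMOX1 did not reach a log2 fold change of 1, the stricter call. Without control replicate 1 the log2 fold change was 0.82 and the adjusted p = 0.0634.

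HMOX2 (ENSG00000103415, chromosome 16, 4524691 to 4560348), which turns over heme in unstressed cells, was at 22.3 and 21.8 CPM in control cells and at 28.1 and 32.5 CPM after knockdown. Both knockdown libraries again lay above both controls. Its log2 fold change of 0.46 (standard error 0.14, 95% interval 0.15 to 0.76) had an adjusted p = 0.0481, just inside the threshold. The call was lost in 4 of the 7 alternative fits, with an adjusted p from 0.0501 to 0.0842 in these 4, and without control replicate 1 (adjusted p = 0.352) or control replicate 2 (adjusted p = 0.351), while the direction was kept throughout. The rise of HMOX2 is therefore less certain than that of HMOX1. Its exons share 3.05% of their bases with NMRAL1 on the opposite strand, which was itself at a log2 fold change of -0.61 (adjusted p = 0.128).

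**Figure D1:**
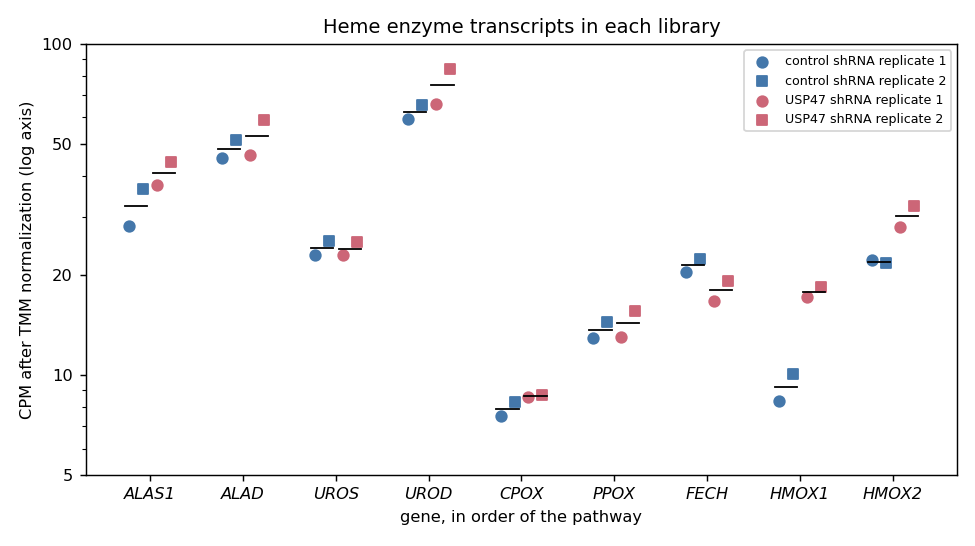
CPM after TMM normalization (vertical, log axis) of the 9 heme enzymes in each of the 4 libraries, with control shRNA in blue, USP47 shRNA in red, circles for replicate 1, squares for replicate 2 and a black bar at each group's mean. HMOX1 is separated most clearly, at 8.37 and 10.1 CPM in the controls against 17.2 and 18.5 CPM in the knockdown.

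ALAS1 (ENSG00000023330, chromosome 3, 52232102 to 52248343), the rate-limiting enzyme outside red cells, was at 28.2 and 36.4 CPM in control cells and at 37.5 and 43.9 CPM after knockdown. The knockdown libraries lay above the controls, but control replicate 2 was close to knockdown replicate 1. The log2 fold change of 0.33 (standard error 0.16, 95% interval -0.02 to 0.68) did not pass the test (adjusted p = 0.177). With 1 library left out it ran from 0.16 to 0.52. ALAD (chromosome 9, 116148592 to 116163570), which joins 2 molecules of aminolevulinate into porphobilinogen, was at 45.2 and 51.4 against 46.3 and 58.9 CPM, and its groups overlapped. The log2 fold change was 0.12 (95% interval -0.21 to 0.45).

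UROS (chromosome 10, 127473549 to 127511827) closes the ring to uroporphyrinogen III. It was the least changed of all, at 23.1 and 25.3 CPM in control cells and 23.0 and 25.2 CPM after knockdown (log2 fold change -0.01, 95% interval -0.31 to 0.29). UROD (chromosome 1, 45476622 to 45481247), which trims the side chains of the ring, had the highest level per length of the 9 genes. It was at 59.2 and 65.2 CPM in control cells and at 65.8 and 84.2 CPM after knockdown. The groups did not overlap, yet the knockdown libraries differed from each other by more than the nearest libraries of the 2 groups did. The log2 fold change was 0.27 (95% interval -0.06 to 0.59, adjusted p = 0.239), and with 1 library left out it ran from 0.084 to 0.44. UROD shares 9.31% of its exon bases with HECTD3 on the opposite strand, which was itself called higher (log2 fold change 0.54, adjusted p = 0.0428). Whether reads of HECTD3 enter the count of UROD was not tested.

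CPOX (chromosome 3, 98298290 to 98312492) and PPOX (chromosome 1, 161135846 to 161147803), the oxidases that prepare protoporphyrin, had the lowest levels per length. CPOX was at 7.55 and 8.31 CPM in control cells and at 8.56 and 8.71 CPM after knockdown (log2 fold change 0.12, 95% interval -0.24 to 0.48), and it shares 5.16% of its exon bases with an unnamed gene on the same strand, ENSG00000285635. PPOX was at 12.9 and 14.4 against 13.1 and 15.6 CPM (log2 fold change 0.06, 95% interval -0.29 to 0.41), and 23.7% of its exon bases are shared with B4GALT3 on the opposite strand. Neither gene passed the test. The groups overlapped in PPOX and not in CPOX.

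FECH (chromosome 18, 55211609 to 55253964), the ferrochelatase that completes heme, had the largest negative value among the 9. It was at 20.5 and 22.4 CPM in control cells and at 16.7 and 19.3 CPM after knockdown. Both knockdown libraries lay below both controls. The log2 fold change was -0.26 (standard error 0.15, 95% interval -0.58 to 0.07, adjusted p = 0.253), which did not pass the test. With 1 library left out it ran from -0.36 to -0.15. The ratio of ALAS1 to FECH, from the deposited TPM, was 2.43 and 2.87 in control cells and 3.95 and 4.01 after knockdown. With 2 libraries per group an exact permutation test of such a ratio cannot give a two-sided p below 0.333.

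Of the 9 genes, 6 had groups that did not overlap, 5 with both knockdown libraries above both controls and 1 with both below. Over all genes tested 61.0% did not overlap, 29.3% above and 31.7% below. Counted in either direction, the absence of overlap was thus about as common among the heme enzymes as elsewhere. By direction, 5 of the 9 lay above, beside 29.3% of all genes, and 1 of the 9 lay below, beside 31.7%. The intervals of all 7 synthesis enzymes include 0, and they leave room for changes as large as 0.68 upward in ALAS1 and 0.58 downward in FECH on the log2 scale.

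**Figure D2:**
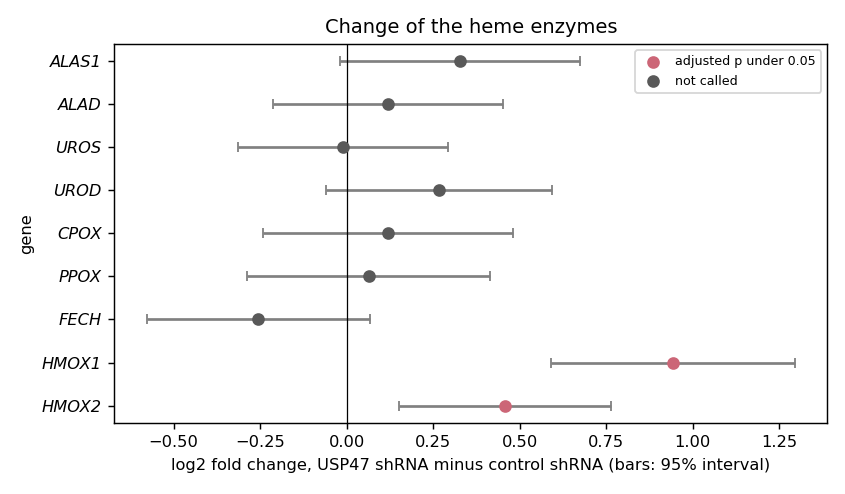
Log2 fold change (horizontal) of each heme enzyme, USP47 shRNA minus control shRNA, with bars for the 95% interval, and red points for an adjusted p under 0.05. The intervals of HMOX1 (0.59 to 1.30) and HMOX2 (0.15 to 0.76) lie above 0, and those of the 7 synthesis enzymes include 0.

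Levels between genes were compared per length, with the TPM values that the authors deposited. The order by mean over the 4 libraries was UROD (30.7 ± 1.80 TPM, SD, n = 4), ALAS1 (18.7), ALAD (12.7), HMOX2 (8.99), UROS (7.79), HMOX1 (7.28), FECH (5.80), PPOX (3.97) and CPOX (2.97). UROD, ALAS1 and ALAD were separated from each other and from the rest, with no overlap of their ranges. The neighbours HMOX2 and UROS, UROS and HMOX1, and HMOX1 and FECH overlapped in their ranges. HMOX1 changed its place with the group. In the control libraries it was at 5.07 and 5.38 TPM, below FECH at 6.68 and 6.42 TPM, and after knockdown it was at 10.4 and 8.33 TPM, above FECH at 5.43 and 4.68 TPM. The ratio of HMOX1 to HMOX2 was 0.592 and 0.731 in control cells and 0.964 and 0.897 after knockdown. In TPM the inducible form was below the constitutive form in each of the 4 libraries.

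**Figure D3:**
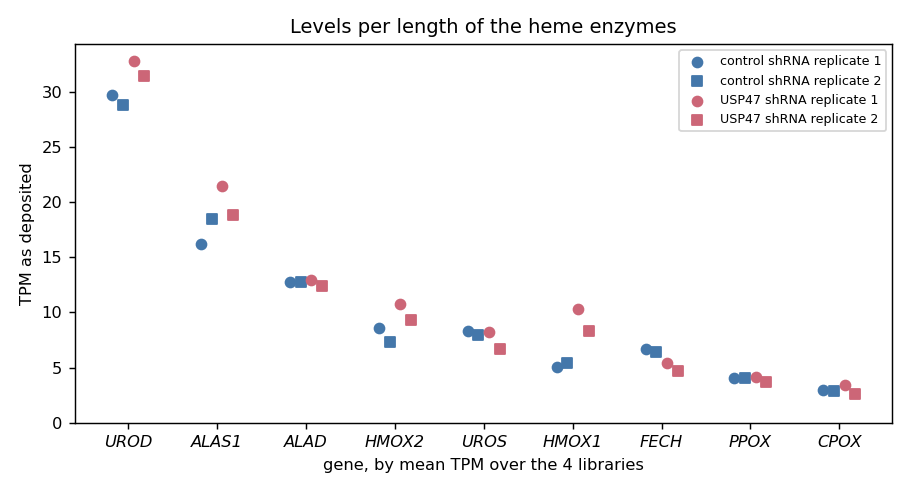
Deposited TPM (vertical, from 0) of the 9 heme enzymes in each library, ordered by the mean over the 4 libraries, with control shRNA in blue and USP47 shRNA in red. UROD stands highest at a mean of 30.7 TPM and CPOX lowest at 2.97 TPM.

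The heme metabolism set was represented by 195 genes written from memory of that published set, of which 160 were tested. Among these, 28 were called higher and 14 lower, and the median log2 fold change was 0.12. That is 26.2% called, beside 16.1% over all genes, where 6.52% were called higher and 9.56% lower. The set held more higher than lower calls, while all genes held more lower than higher calls. The number called higher was 16 with library size alone and 18 with no filter. Over all genes it was 881 and 1008 in those fits, against 1430 in the main fit. With 1 library left out, the median log2 fold change of the set ran from 0.047 (without knockdown replicate 2) to 0.16 (without knockdown replicate 1). The number of calls in the set moved widely in those fits, as did the number over all genes. Of the 9 heme enzymes 6 belong to the set (ALAD, UROS, UROD, CPOX, PPOX and FECH), and 0 of these 6 were called in either direction. Without them 154 tested genes remained, still with 28 called higher and 14 lower, and their median was 0.13. ALAS1, HMOX1 and HMOX2 are not members of the set, so the oxygenases that rose were outside it and the enzymes inside it did not pass the test.

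Among the genes of the set called higher, those with the smallest p were SLC30A1, MARCHF8, MFHAS1, NEK7 and CAT. SLC30A1, a zinc exporter, was at 26.0 and 29.3 CPM in control cells and at 59.3 and 57.5 CPM after knockdown (log2 fold change 1.08, adjusted p = 0.000997). MARCHF8, a membrane-bound ubiquitin ligase, went from 12.6 CPM in both controls to 25.4 and 29.5 CPM. MFHAS1, NEK7 (a mitotic kinase) and CAT (catalase, itself a heme protein) followed with log2 fold changes of 0.81, 0.81 and 0.72. Among those called lower, the smallest p were those of NNT, the mitochondrial enzyme that makes NADPH (log2 fold change -0.85), MBOAT2, a phospholipid acyltransferase (-0.83), and SLC7A11, the cystine importer (-0.69).

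Of 13 erythroid markers 4 were tested and 0 were called by edgeR or by DESeq2. In edgeR 2 were higher and 1 lower at an unadjusted p under 0.05. The share of all genes at that cut was not worked out but exceeds the 16.1% called. The summed level of the 13 markers was between 79.5 and 84.7 TPM in control cells and between 83.5 and 101 TPM after knockdown. Most of it came from the alpha-globin genes HBA1 and HBA2. EPOR, the erythropoietin receptor, was at 10.4 and 8.66 TPM in control cells and at 8.45 and 8.94 TPM after knockdown. ALAS2, the red cell form of the first enzyme, had 7 counts in each control library and 16 and 3 after knockdown and was not tested. HBB, which encodes beta-globin, the red cell transcription factors GATA1 and KLF1, and SLC4A1, the anion exchanger of the red cell membrane, had at most 3 counts in any library. The part of red cell transcripts in the changes of the set was not tested.

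Genes that supply or surround heme synthesis were examined as a list of 16, of which 15 were tested and 0 were called by edgeR or by DESeq2. In edgeR 2 had an unadjusted p under 0.05, a cut at which the share of all genes was not worked out but exceeds the 16.1% called. Their median log2 fold change was 0.16. SLC25A28, a mitochondrial iron importer, had a log2 fold change of 0.33 (adjusted p = 0.120), and ABCB10, a mitochondrial transporter, had one of -0.27 (adjusted p = 0.227). Of the carriers of heme 8 were tested and 1 was called, a share of 12.5% beside 16.1% over all genes. That gene, PGRMC1, a heme-binding membrane protein, fell from 156 and 167 CPM to 108 and 120 CPM (log2 fold change -0.50, adjusted p = 0.0278), and its call was lost without either control library. FLVCR2 (0.29) and HEBP1 (-0.30) came next and were not called.

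Downstream of the oxygenases, the biliverdin reductases BLVRA (log2 fold change -0.01) and BLVRB (0.16), which turn biliverdin into bilirubin, were not called. In the list of 19 genes of bile pigment and iron handling, 17 were tested, 2 were called higher and 2 lower, a share of 23.5% beside 16.1% over all genes. The number of calls in this list moved widely with the library left out, as did the number over all genes. SLC40A1, ferroportin, the exporter of cellular iron, was at 8.31 CPM in both control libraries and at 17.8 and 16.1 CPM after knockdown (log2 fold change 1.03, adjusted p = 0.00269). SLC39A8, a metal importer, rose with a log2 fold change of 0.60 (adjusted p = 0.0146). IREB2, the iron regulatory protein that stabilizes the transferrin receptor message, fell from 99.3 and 92.7 CPM to 72.9 and 66.5 CPM (log2 fold change -0.46, adjusted p = 0.0342). TFRC, the transferrin receptor that brings iron into the cell, fell from 197 and 180 CPM to 142 and 136 CPM (log2 fold change -0.44, adjusted p = 0.0416). The ferritin chains FTL and FTH1, which store iron, had log2 fold changes of 0.44 and 0.39 with an adjusted p of 0.103 and 0.134, and were named after their values were seen.

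Among 10 regulators of HMOX1 all were tested, 1 was called higher and 0 lower, a share of 10% beside 16.1% over all genes. At an unadjusted p under 0.05 in edgeR there were 4 higher and 0 lower. The share of all genes at that cut was not worked out, though it exceeds the 16.1% called. This count thus has no exact background beside it. The called gene was BACH1, the repressor of HMOX1, which was at 44.6 and 43.7 CPM in control cells and at 69.5 and 61.5 CPM after knockdown (log2 fold change 0.57, adjusted p = 0.0158). Its call was lost with library size alone and without either control library. The number of regulators called moved with the library left out, as did the number over all genes. KEAP1, the adaptor that sends NRF2 to degradation (0.36), and HSF1, the heat shock factor (0.32), had the next smallest p and were not called. NFE2L2, which encodes NRF2, had a log2 fold change of -0.18 (95% interval -0.48 to 0.11).

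Of the other targets of NRF2 20 were tested, 1 was called higher and 2 lower, a share of 15% beside 16.1% over all genes. The median log2 fold change was -0.01, with 10 genes above 0 and 10 below. The number called in each direction moved widely with the library left out, as it did over all genes. AKR1C1, an aldo-keto reductase with close paralogs whose reads may be divided, rose with a log2 fold change of 0.65 (adjusted p = 0.0329), a call that was lost with library size alone, with no filter and with DESeq2. SLC7A11 fell from 178 and 160 CPM to 110 and 98.6 CPM (log2 fold change -0.69, adjusted p = 0.00829), and ME1, malic enzyme, fell with a log2 fold change of -0.42 (adjusted p = 0.0416). The classical targets NQO1 (-0.03), GCLM (0.01), TXNRD1 (-0.10) and SRXN1 (0.01), picked out here after their values were seen, were not called. They do not stand for the list, whose 20 tested genes ran from -0.77 to 0.65.

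Of the regulators of ALAS1, 12 were tested, 2 were called higher and 1 lower, a share of 25% beside 16.1% over all genes. The number called higher in this list moved with the library left out, as it did over all genes. PPARGC1A, a coactivator that works with NRF1 at ALAS1, had 30 and 34 counts with control shRNA, 7 and 9 after knockdown (log2 fold change -1.92, standard error 0.37, adjusted p = 0.00841). It was not called by DESeq2 and did not pass a filter of 10 counts in every library. NR1D1, a heme-binding nuclear receptor that represses PPARGC1A, had 151 and 207 counts in control cells, 332 and 264 after knockdown (log2 fold change 0.81, adjusted p = 0.00961). EGR1, an immediate-early factor, had a log2 fold change of 1.44 (adjusted p = 0.0115). NRF1, whose core site lies in the ALAS1 window shown above, was not called (log2 fold change 0.07, 95% interval -0.24 to 0.37).

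Proteins that use heme, and the enzymes that fit it into them, had 4 genes called higher and 1 lower of 18 tested, a share of 27.8% beside 16.1% over all genes. The number called higher was 2 with library size alone, a fit in which the number over all genes fell from 1430 to 881. HCCS, which attaches heme to cytochrome c, was at 11.0 and 9.53 CPM in control cells and at 20.4 and 24.2 CPM after knockdown (log2 fold change 1.12, adjusted p = 0.00218). CAT was at 41.2 and 38.0 against 66.1 and 63.8 CPM (log2 fold change 0.72, adjusted p = 0.00556). CYP20A1, a cytochrome P450 (0.54), and COX10, which farnesylates heme for cytochrome oxidase (0.47), also rose. CYB5A, cytochrome b5, fell from 15.7 CPM in both controls to 9.91 and 11.4 CPM (log2 fold change -0.56, adjusted p = 0.0319), a call that was lost with DESeq2 and without either control library. Over the 7 lists together 17 of 100 tested genes were called, 10 higher and 7 lower. That is a share of 17.0% beside 16.1% over all genes, where 6.52% were called higher and 9.56% lower. With 1 library left out, the number of calls in these lists moved widely, as did the number over all genes. SLC7A11, CAT and other genes of these lists also belong to the heme metabolism set.

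The genes most like ALAS1 and HMOX1 across the 4 libraries were found by the distance between log2 CPM profiles, each centred on its own mean, among the 11299 other genes whose average log2 CPM reached 3. For ALAS1 these were HHLA3, ANAPC11 and B4GALT6, at distances of 0.0063, 0.033 and 0.050. For HMOX1 they were ATP6V0E1, SPSB4 and EIF4E2, at distances of 0.083, 0.085 and 0.088, with log2 fold changes of 0.92, 0.91 and 0.96. With only 4 libraries such likeness says only that the profiles run together.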

How the data were processed

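The 4 RNA-Seq libraries of HGC-27 cells were compared, 2 with control shRNA against 2 with USP47 shRNA, as the labels give the groups. Per the study's methods the authors cut bases of quality under 20, aligned to hg19 with STAR 2.7.5c and used SAMtools 1.9 to drop duplicate and poor-quality reads. The submitters' processing notes also name featureCounts. Its version, annotation and strand setting are not given in the sources used here, and the labels and the methods name different library kits. The authors deposited raw counts per gene, together with FPKM and TPM. Removal of duplicates can compress the fold changes of abundant genes.

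Symbols were matched for 55665 of 63568 identifiers. Counts were tested with edgeR 4.0.16 in R 4.3.3 (filterByExpr, TMM, robust quasi-likelihood fit, both directions, Benjamini-Hochberg over 21932 genes, adjusted p under 0.05). Standard errors were obtained from the fold change and its F statistic, and 95% intervals use the degrees of freedom of the fit. The deposited TPM values served to compare levels between genes, for ratios between genes and for the summed levels of the marker lists. FPKM served only to derive gene lengths. Genes of 7SL, an abundant noncoding RNA, took between 33.8% and 39.0% of the TPM of a library. The TPM sums of the marker lists are therefore only a rough guide between libraries. Positions and shared exon bases come from GENCODE release 44 lifted to GRCh37. With 2 libraries per group the spread of a gene rests largely on that shared with other genes.

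The heme enzymes and the gene lists were chosen with earlier results of these data known, and the lists were written from memory. The genes named are USP47, the 9 enzymes, the 5 higher and 3 lower called genes of the heme metabolism set with the smallest p, the 3 genes of each other list with the smallest p, and the 3 genes closest in profile to ALAS1 and to HMOX1. Some genes that this rule or the lists hold are not reported here. In lists with 5 or fewer calls every called gene may be named. Alternatives covered the test (DESeq2 1.42.0, legacy quasi-likelihood), the scaling, the filter, calls limited to log2 fold changes of at least 1, a block for the replicate number, and leaving out each library.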

Additional observations from a re-analysis of the deposited data

How the results depend on the processing

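Of the 63 log2 fold changes of the heme enzymes under the 7 alternatives with all libraries, 54 kept their direction and call. Values near 0 changed sign in UROS (0.0058 with DESeq2 size factors, 0.0059 with the DESeq2 Wald test) and in PPOX (-0.0080 with library size alone). HMOX2 lost its call with library size alone, with no filter, with a filter of 10 counts per library and with the Wald test, which left 1 enzyme called higher in each of these settings, and none reached a log2 fold change of 1 (0 called). The replicate number as a block called 4 enzymes higher, adding ALAS1 (adjusted p = 0.0101) and UROD (adjusted p = 0.0397). It also raised the heme metabolism set to 49 higher and 23 lower and the 7 lists together to 30 higher and 12 lower, with 3530 higher and 3892 lower over all genes in that fit, against 1430 and 2097. The differences between replicates 1 and 2 correlated at 0.192 between the groups over genes, no source ties the numbers to a batch, and 2 pairs cannot settle it. In the heme metabolism set, library size alone gave 16 called higher, no filter 18 and the minimum log2 fold change of 1 gave 3 higher and 0 lower, and the Wald test gave 8 lower. In the 7 lists together library size alone gave 6 higher and the Wald test 4 lower. Over all genes, library size alone moved the share of higher calls from 40.5% to 31.5%, and the Wald test moved it to 47.0% and called 1300 genes lower in place of 2097. The causes were not tested.

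In fits that left out 1 library, a group of 1 library was assumed to vary like the other group. The number of enzymes called higher then ran from 0 to 4 and called lower from 0 to 1, that of the heme metabolism set from 3 to 60 higher and from 3 to 30 lower, and that of the 7 lists together from 3 to 35 higher and from 1 to 16 lower. The number called higher was lowest without control replicate 1 and highest without knockdown replicate 1 in all 3 groups of genes, as it was over all genes (323 and 3770). The number called lower over all genes moved with the library left out as well. USP47 stayed between -1.75 and -1.01. Signs turned in ALAD (-0.060 without knockdown replicate 2), UROS (0.055 without control replicate 2 and 0.061 without knockdown replicate 1, in a range from -0.073 to 0.061) and PPOX (-0.012 without control replicate 1 and -0.062 without knockdown replicate 2, in a range from -0.062 to 0.20). The median of the 9 enzymes was 0.29 without knockdown replicate 1. With 2 libraries per group, changes in CPOX, PPOX or UROS smaller than their intervals could not be seen.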

Other observations

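The erythroid markers ranged widely in counts. With control shRNA HBA1 had 414 and 516 counts, against 644 and 483 after knockdown, and HBA2 had 286 and 370 against 445 and 332. HBB had 2 or 3 counts in every library, and AHSP, the chaperone of alpha-globin, had at most 1. EPOR, the erythropoietin receptor, had between 322 and 361. HBA1 and HBA2 are near-identical copies, so the division of reads between them is uncertain. Their log2 fold changes were 0.35 and 0.32, with an adjusted p of 0.100 and 0.154 in edgeR's quasi-likelihood test, and the CPM of the groups did not overlap in either gene. These genes were singled out after their values were seen.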
